A study of Danio rerio with 8 samples.

Results

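The genes described here encode enzymes and remodellers that act on chromatin. They were taken from the deposited count table of sorted zebrafish endothelial cells by symbol, ignoring case: names that begin with kmt, kdm, ehmt, setd, smarc, chd, hdac, ep300, crebbp, dot1l, ezh, dnmt or tet, most of them followed by a digit. This took 103 of the 31901 genes in the table, and 100 of the 103 had enough counts to be tested. The study compared kdrl-positive cells of sf3b1 mutant embryos with those of their siblings at 28 hours post fertilization, with 4 libraries per genotype made from total RNA depleted of ribosomal RNA. The gene sf3b1 encodes a subunit of the U2 small nuclear ribonucleoprotein, which recognises the branch point of introns. The sources used here name neither the allele nor the genotypes among the siblings, nor how many embryos entered a library, so the p-values measure the spread between these libraries, which may be technical. Library totals ran from 10035886 to 13277963 counts. The most counted gene of each library took 13.3 to 16.2% of its counts in mutants versus 9.71 to 12.3% in siblings.

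DNA in the nucleus is wrapped around histones, and the access of transcription factors to it depends on marks and on moving nucleosomes. Methyltransferases (Kmt, Setd, Ehmt, Ezh, Dot1l) add methyl groups to histone lysines and Kdm demethylases remove them. Crebbp and Ep300 add acetyl groups and Hdac enzymes take them off. Dnmt enzymes methylate cytosines in DNA and Tet enzymes oxidise the methyl group. Chd and Smarc proteins form remodelling machines that slide or evict nucleosomes at the cost of ATP. In zebrafish, Tet enzymes and Lsd1 (the product of kdm1a) are needed for the passage from endothelium to blood, and in mice Brg1 (Smarca4) and Hdac7 act in the growing vasculature.

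The SF3B1 transcript (ENSDARG00000056138) stood at 151.3, 149.6, 187.9 and 162.3 CPM (counts scaled to a common effective library size) in the 4 mutant libraries and at 313.2, 211.5, 310.6 and 353.9 CPM in the sibling libraries. Every mutant lay below every sibling (log2 fold change -0.87 ± 0.166, adjusted p = 0.00168). Of 14 tested genes that mark endothelium, flt1 was higher and sox18 lower in mutants. The other 12 did not pass, among them kdrl itself, at 690 to 1625 CPM in mutants versus 628 to 1064 CPM in siblings (0.50 ± 0.241 on the log2 scale, adjusted p = 0.167). Without mutant replicate 1 kdrl passed, higher in mutants by 0.68 on the log2 scale. The summed level of the endothelial markers spread about 2-fold among the mutants, at 2782, 3814, 4844 and 5602 CPM, versus 3009, 2882, 4332 and 4856 CPM in siblings, and the groups overlapped. Markers of other cells were also present. Leukocyte markers summed to 195 to 401 CPM in mutants versus 890 to 1171 CPM in siblings, with 11 of 16 tested genes lower and 0 higher. Of the leukocyte genes in the list, marco and 2 copies of MFAP4 had no count in any mutant library, as had birc5b among the mitosis genes and MYF5 among the muscle markers. In siblings marco, MYF5 and these copies of MFAP4 were at or near 0 too, at no more than 2.49 CPM in any library. Erythroid markers summed to 4421 to 5680 CPM in mutants versus 8804 to 16860 CPM in siblings (8 of 11 lower), and neural markers to 485 to 618 CPM in mutants versus 1176 to 1874 CPM in siblings (11 of 25 lower). Genes of mitosis summed to 2095 to 2342 CPM in mutants versus 3344 to 4015 CPM in siblings (9 of 21 lower, 1 higher), while S phase genes overlapped, at 3087 to 3593 CPM in mutants versus 2572 to 3701 CPM in siblings. Muscle markers and markers of neural crest and epidermis overlapped between the genotypes in their summed level. Of all genes tested 11.4% were lower and 9.92% higher, and of those with a mean of 50 CPM and over 24.0% lower and 17.2% higher. The marker counts were not matched for depth. The second principal component set mutant replicate 4 and sibling replicate 2 off from the rest, and without both 14 chromatin genes were higher and 23 lower, beside 16 and 23 with all libraries. The part that the cell types in the sort or cycling cells play in the values below was not tested. In such bulk samples, fewer cells of a type and less RNA per cell cannot be told apart.

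Chromatin genes changed in both directions in the mutants. Of the 100 tested, 16 were higher, 23 lower and 61 did not pass an adjusted p of 0.05 (edgeR quasi-likelihood test, p adjusted after Benjamini and Hochberg over all genes). That is 39.0% of the tested chromatin genes, where 21.3% of all 18289 genes tested passed (9.92% higher and 11.4% lower). The chromatin genes were counted more deeply than most, and the share that passes grows with depth. Among genes with a mean of 50 CPM and over, 27 of 62 chromatin genes passed (43.5%) and 41.2% of all genes did. Between 20 and 50 CPM the shares were 8 of 19 chromatin genes (42.1%) against 33.7% of all genes, and between 5 and 20 CPM 4 of 13 (30.8%) against 19.7%. In the deepest class, which holds most of them, the chromatin genes passed about as often as any gene. There 8 of the 62 were higher and 19 lower, where 17.2% of all genes were higher and 24.0% lower. Mutant and sibling libraries lay wholly apart in 47 tested chromatin genes (47.0%), where 26.7% of all tested genes lay apart. These 2 shares were not matched for depth. The median log2 fold change was -0.09 for the tested chromatin genes and -0.0004 for all genes tested, and 14 of the 39 that passed changed at least 2-fold. Summed over all 103 genes, the level was 14490 to 15040 CPM in mutants versus 15960 to 17360 CPM in siblings.

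**Figure D1:**
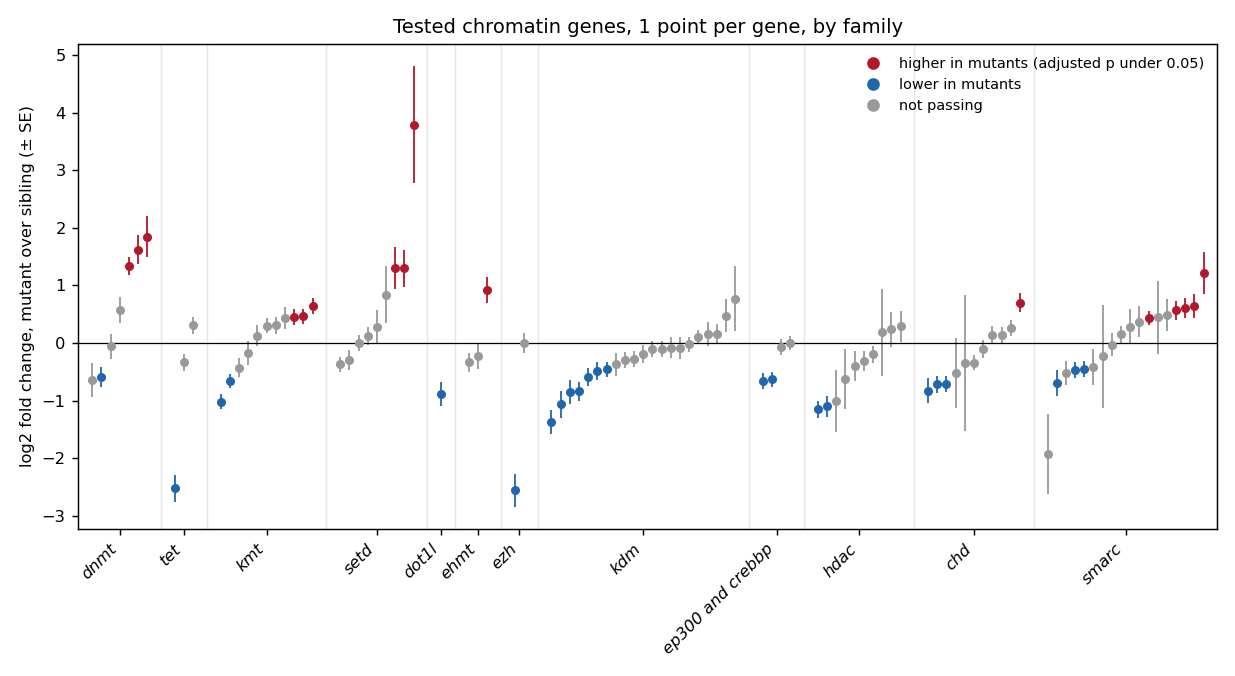
Log2 fold change of mutant over sibling (vertical axis, ± SE) for the 100 tested chromatin genes, 1 point per gene, grouped by family along the horizontal axis and sorted within it. TET1 (-2.53) and ezh1 (-2.56) lie lowest and setd1bb (3.80) highest. The kdm and hdac families hold genes that were lower (7 of 21 and 2 of 10) and none that was higher. Of all genes tested 11.4% were lower and 9.92% higher.

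By family, the passing genes divided as follows. No kdm, hdac, crebbp, ep300, ezh, tet or dot1l gene passed upward, while 7 kdm, 2 hdac, 2 crebbp, 1 ezh, 1 tet and the single dot1l gene passed downward. No tested setd or ehmt gene passed downward, and 3 setd genes and 1 ehmt gene passed upward. The kmt (3 higher, 2 lower), dnmt (3 higher, 1 lower), smarc (5 higher, 3 lower) and chd families (1 higher, 3 lower) held both. Of all genes tested 9.92% passed upward and 11.4% downward, and of those with a mean of 50 CPM and over 17.2% upward and 24.0% downward. With families of 1 to 21 tested genes, and with no test of one family against another, the family counts describe the members and not a difference between families.

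Genes of DNA methylation changed in both directions. Of the 4 genes for de novo methyltransferases of the Dnmt3b group 3 were higher, and the maintenance enzyme gene DNMT1 and the oxidase gene TET1 were lower. dnmt3ba (ENSDARG00000052402) stood at 277, 272.8, 209.2 and 253.1 CPM in mutants and at 115.3, 90.3, 102.2 and 92.5 CPM in siblings. The lowest mutant library was above the highest sibling by a wide margin, and the log2 fold change was 1.34 ± 0.149 (SE, adjusted p = 2.76e-05).

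Its relatives dnmt3bb.2 and dnmt3bb.3 moved the same way. dnmt3bb.2 (ENSDARG00000057830) had 85.9, 71.5, 51.2 and 89.6 CPM in mutants, against 31.1, 18.9, 30.8 and 16.3 CPM in siblings (a log2 fold change of 1.62 ± 0.254, adjusted p = 0.000394). dnmt3bb.3 (ENSDARG00000057863) had 58.3, 43.3, 29.0 and 41.5 CPM in mutants, against 19.5, 4.87, 11.5 and 11.9 CPM in siblings (1.85 ± 0.35, adjusted p = 0.00162). Neither gene's groups overlapped, and sibling replicate 2 was the lowest sibling for dnmt3bb.3. Names of this form mark copies that lie side by side, and the counting may have split reads between them, so their separate values are uncertain. A further gene with the symbol DNMT3B (ENSDARG00000036791) averaged 40.2 ± 7.51 CPM in mutants versus 27 ± 7.07 CPM in siblings (SD, n = 4 each) and did not pass (0.58 ± 0.232, adjusted p = 0.0951). The 2 DNMT3A genes did not pass either. The one with identifier ENSDARG00000005394 averaged 18.5 ± 7.81 CPM in mutants versus 29 ± 4.41 CPM in siblings, and the other (ENSDARG00000015566) 30.5 ± 4.29 CPM in mutants versus 31.8 ± 6.1 CPM in siblings.

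DNMT1 (ENSDARG00000030756) copies methylation to the new strand after replication. It stood at 121.8, 137.2, 164.4 and 126.7 CPM in mutants versus 263, 221.9, 173.2 and 169.6 CPM in siblings, so that the groups came within 6 CPM of each other without overlap. The log2 fold change was -0.59 ± 0.17 (adjusted p = 0.0228). This call was lost without mutant replicate 1, 2 or 4 or sibling replicate 1, with -0.69 to -0.45 over the 8 libraries left out in turn, and it was lost without mutant replicate 4 and sibling replicate 2 together. The gene of its cofactor Uhrf1, which binds half-methylated DNA, went the other way: UHRF1 averaged 405.7 ± 33.1 CPM in mutants versus 280.4 ± 57.1 CPM in siblings (0.53 ± 0.156, adjusted p = 0.0236), a call that ended without mutant replicate 1, 2 or 4 or without replicate 3 or 4 of the siblings (0.43 to 0.66).

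TET1 (ENSDARG00000075230) was among the largest falls. It stood at 38.8, 25.3, 33.2 and 44.1 CPM in mutants, against 283.3, 213.2, 176.2 and 141.9 CPM in siblings. The siblings spread over a 2-fold range, yet the lowest of them was far above the highest mutant. The mutant level was 0.174 of the sibling level (log2 fold change -2.53 ± 0.23, adjusted p = 5e-06), and the value held at -2.67 to -2.33 with any 1 library left out. TET2 (ENSDARG00000076928) had 86 to 96.2 CPM in mutants versus 103.5 to 129.5 CPM in siblings, without overlap, but did not pass (-0.33 ± 0.147, adjusted p = 0.129). tet3 (ENSDARG00000062646), the most counted Tet gene, stood at 342.7 to 407.4 CPM in mutants versus 272.7 to 389.5 CPM in siblings (0.31 ± 0.145, adjusted p = 0.159). Its high sibling value came from sibling replicate 3, and without that library tet3 passed, with 0.44.

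**Figure D2:**
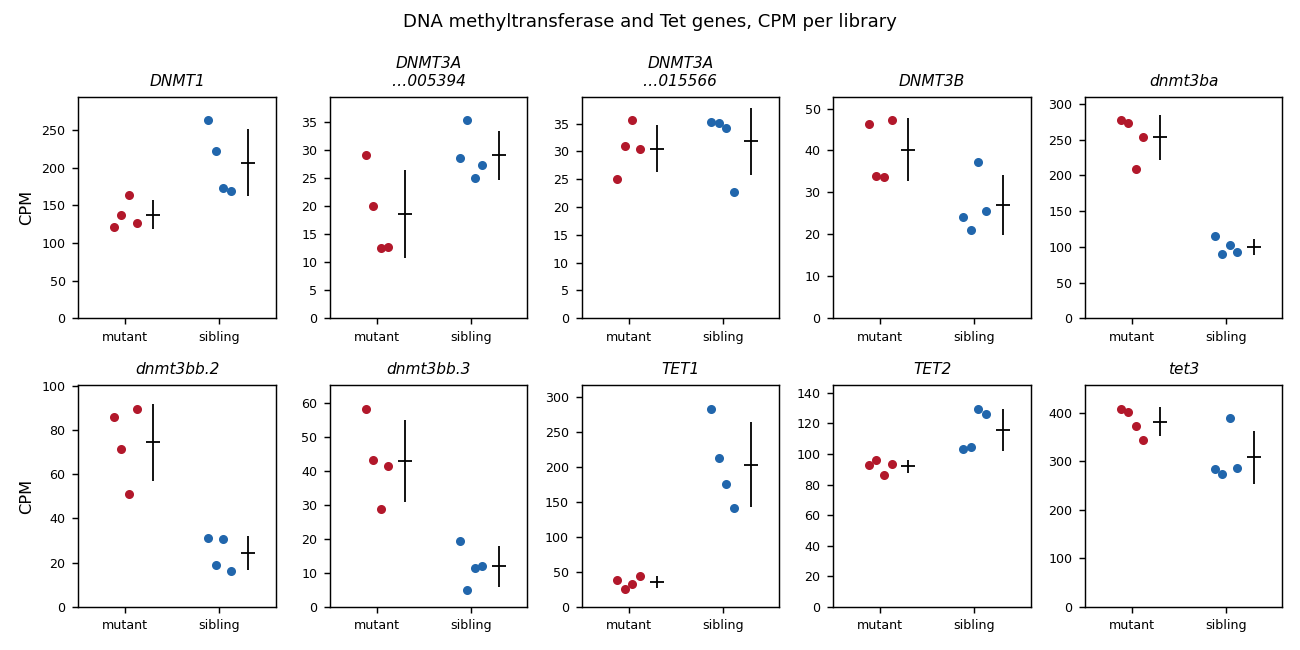
CPM (vertical axis) of the 7 Dnmt and 3 Tet genes in each library, mutant left and sibling right, with the mean ± SD (n = 4) as a bar beside the points. dnmt3ba, dnmt3bb.2 and dnmt3bb.3 lie higher in every mutant library, and TET1, at 25.3 to 44.1 CPM in mutants versus 141.9 to 283.3 CPM in siblings, lies lower.

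Methylation of histone H3 at lysine 4 marks promoters and enhancers and is written by enzymes of the Kmt2 and Setd1 families. Of the 10 genes with these names, which need not all encode a writer of the mark, 4 were higher and 2 lower in the mutants. The 2 Kmt2b genes passed in opposite directions. Of all genes tested 9.92% were higher and 11.4% lower, and of those with a mean of 50 CPM and over 17.2% higher and 24.0% lower. kmt2a (ENSDARG00000004537), the orthologue of the human leukaemia gene MLL, fell to 148.7, 158.5, 163.1 and 161.7 CPM in mutants, against 337.1, 344.7, 312.9 and 284.1 CPM in siblings. Both groups were tight, and the mutant level was 0.494 of the sibling level (log2 fold change -1.02 ± 0.13, adjusted p = 7.81e-05).

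The 2 copies of the Kmt2b gene moved against each other. kmt2ba (ENSDARG00000062962) rose to 346.6, 346, 318.1 and 323.5 CPM in mutants, against 219.7, 220.4, 173.3 and 243.1 CPM in siblings (0.64 ± 0.138, adjusted p = 0.00401). kmt2bb (ENSDARG00000060697) fell to 271.7, 298.5, 278.2 and 243.2 CPM in mutants, against 431.2, 463.4, 436.9 and 396.8 CPM in siblings (-0.66 ± 0.127, adjusted p = 0.00175). Neither gene's groups overlapped, and both calls held with each library left out in turn.

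Of the 3 genes for the enhancer methyltransferases Kmt2c and Kmt2d, 2 passed, both higher. KMT2C (ENSDARG00000079312) averaged 385.8 ± 17.1 CPM in mutants versus 279.3 ± 29.2 CPM in siblings (0.47 ± 0.129, adjusted p = 0.0176), and its copy ENSDARG00000075560 365.3 ± 41.9 CPM in mutants versus 295.6 ± 45.3 CPM in siblings without passing (0.31 ± 0.147, adjusted p = 0.168). KMT2D (ENSDARG00000037060), mutated in Kabuki syndrome in humans, averaged 224.2 ± 29.5 CPM in mutants versus 163.9 ± 13.4 CPM in siblings (0.45 ± 0.143, adjusted p = 0.035). The call of KMT2D was lost on leaving out 6 of the 8 libraries (all but mutant replicate 4 and sibling replicate 4), with 0.38 to 0.53, and that of KMT2C (0.41 to 0.51) without mutant replicate 2 or sibling replicate 1. KMT2E (ENSDARG00000007523) had 264.8 to 317.9 CPM in mutants versus 213.6 to 253.1 CPM in siblings, again without overlap, but did not pass (adjusted p = 0.119).

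setd1bb (ENSDARG00000077244) was nearly absent from siblings. The deposited counts were 134, 90, 86 and 153 in mutants and 0, 0, 3 and 30 in siblings, or 10.47, 7.19, 8.25 and 12.6 CPM in mutants versus 0, 0, 0.245 and 2.41 CPM in siblings. The fitted log2 fold change of 3.80 ± 1.02 (adjusted p = 0.0162) rests on few sibling counts and depends on the prior count, and without sibling replicate 4 it was 6.59. The other 2 Setd1 genes were lower without passing. setd1a (ENSDARG00000060030) had 182.3 to 199.9 CPM in mutants versus 218.6 to 265.1 CPM in siblings (-0.37 ± 0.13, adjusted p = 0.0597), and SETD1B (ENSDARG00000060847) averaged 76.8 ± 12 CPM in mutants versus 94.3 ± 11.6 CPM in siblings.

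**Figure D3:**
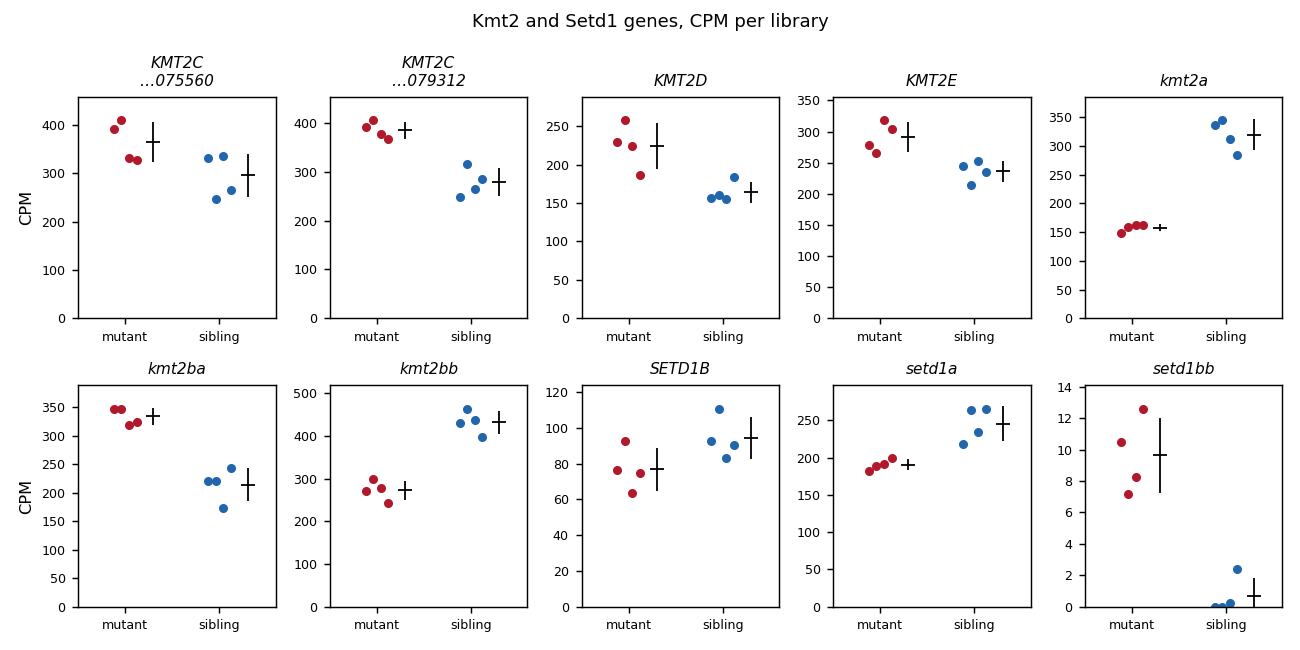
CPM (vertical axis) of the 7 Kmt2 and 3 Setd1 genes in each library, mutant left and sibling right, with the mean ± SD (n = 4) as a bar beside the points. kmt2ba is higher and kmt2bb lower in every mutant library, and setd1bb has 0 counts in 2 of the 4 sibling libraries.

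The demethylases that remove the lysine 4 mark included 2 genes that fell. KDM1A (ENSDARG00000060679), which encodes Lsd1, averaged 179.2 ± 10.4 CPM in mutants versus 246 ± 22 CPM in siblings (-0.46 ± 0.131, adjusted p = 0.0221), a call lost with no filter on low counts and without mutant replicate 1, mutant replicate 3 or sibling replicate 4 (-0.5 to -0.4 over single libraries left out). KDM5B (ENSDARG00000003098) averaged 118 ± 18.3 CPM in mutants versus 177 ± 20.5 CPM in siblings (-0.58 ± 0.155, adjusted p = 0.014), lost without mutant replicate 2 (-0.67 to -0.52). The other 3 kdm5 genes did not pass, with log2 fold changes of -0.10 to 0.15.

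Other histone methyltransferases split by gene. ezh1 (ENSDARG00000037894) and EZH2 encode alternative catalytic subunits of Polycomb repressive complex 2, which writes the repressive mark on lysine 27 of histone H3. ezh1 stood at 7.74, 4.72, 9.49 and 4.77 CPM in mutants, against 47.8, 35.2, 39 and 35.5 CPM in siblings. Its mutant level was 0.17 of the sibling level, and no library came near the other group (log2 fold change -2.56 ± 0.286, adjusted p = 2.81e-05). EZH2 (ENSDARG00000010571) averaged 73.1 ± 8.61 CPM in mutants versus 73.2 ± 11 CPM in siblings, with a log2 fold change of -0.0006 ± 0.169 that did not pass and whose sign turned with the scaling. Of the demethylases that remove that mark, KDM6B (ENSDARG00000088087), the most counted kdm gene, had 1030 to 1377 CPM in mutants versus 1038 to 1166 CPM in siblings (0.11 ± 0.127, adjusted p = 0.635). kdm6bb (ENSDARG00000056929) fell to 164.6 ± 27.5 CPM in mutants, against 231 ± 25.1 CPM in siblings (-0.49 ± 0.156, adjusted p = 0.0364), a call that ended with upper-quartile scaling and on leaving out any library but mutant replicate 4 or sibling replicate 2 (-0.58 to -0.38).

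DOT1L (ENSDARG00000061992), the methyltransferase of lysine 79 of histone H3 in transcribed genes, stood at 117, 99.2, 102.2 and 84.9 CPM in mutants versus 148.3, 269.2, 132.4 and 196 CPM in siblings (-0.89 ± 0.206, adjusted p = 0.00647). The siblings were uneven, with replicate 2 highest, but all were above the mutants. ehmt1a (ENSDARG00000068157), which encodes a methyltransferase for lysine 9 of histone H3, rose to 34.7, 25.2, 29.9 and 31.6 CPM in mutants, against 16.8, 15.7, 17.5 and 14.2 CPM in siblings (0.92 ± 0.222, adjusted p = 0.00818). Its relatives EHMT1 (ENSDARG00000026634), at 70.2 ± 7.11 CPM in mutants versus 88.6 ± 14.2 CPM in siblings, and EHMT2 (ENSDARG00000102325), at 23.6 ± 3.73 CPM in mutants versus 27.6 ± 4.32 CPM in siblings, did not pass.

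None of the 4 kmt5 genes, whose products methylate lysine 20 of histone H4, passed (-0.43 to 0.43). setd2, the writer of lysine 36 trimethylation along transcribed genes, averaged 233.9 ± 7.78 CPM in mutants versus 234.2 ± 28.4 CPM in siblings, with a log2 fold change of -0.0019 ± 0.134 whose sign also turned with the scaling. Of the smaller Setd genes, SETD4 (ENSDARG00000036592) had 10.6 to 16 CPM in mutants versus 4.77 to 6.41 CPM in siblings (1.3 ± 0.32, adjusted p = 0.00916). SETD7 (ENSDARG00000038858), a lysine 4 monomethyltransferase that also acts on other proteins, had 10.6 to 12.7 CPM in mutants versus 3.1 to 6.04 CPM in siblings (1.3 ± 0.365, adjusted p = 0.0195). The call of SETD7 was lost without mutant replicate 1 and without replicate 1 or 4 of the siblings, at 1.14 to 1.43 over all single libraries left out.

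Demethylases of lysines 9 and 36 made up the other falls of the kdm family. kdm4aa (ENSDARG00000018782), a demethylase of both sites, stood at 168.4, 114.3, 148.6 and 133.7 CPM in mutants, against 285.4, 526.6, 279.4 and 369.8 CPM in siblings (-1.37 ± 0.203, adjusted p = 0.000245). Sibling replicate 2 was the highest of the siblings, which all lay above the mutants. KDM2A (ENSDARG00000078133), of a family that removes lysine 36 methylation and binds CpG islands, had 56.7 to 91.6 CPM in mutants versus 134.1 to 155.4 CPM in siblings (-0.84 ± 0.169, adjusted p = 0.00241). KDM2B (ENSDARG00000046010), a subunit of a variant Polycomb complex, had 19 to 36.8 CPM in mutants versus 47.8 to 72.1 CPM in siblings (-1.07 ± 0.236, adjusted p = 0.00465).

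The other 2 kdm2 genes also lay below every sibling but did not pass, with adjusted p = 0.134 for kdm2aa and 0.182 for KDM2B (ENSDARG00000036593). KDM7A (ENSDARG00000018559), a demethylase of lysines 9 and 27, had 73.4 to 144.7 CPM in mutants, highest in replicate 4, and 148.9 to 213 CPM in siblings (-0.85 ± 0.211, adjusted p = 0.0095). In all, 16 of the 21 kdm genes had a log2 fold change below 0, with a median of -0.19. Among all genes tested 9150 of 18289 did. Deeply counted genes passed downward more often than upward, 24.0% against 17.2% of all genes with a mean of 50 CPM and over.

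The histone acetyltransferase genes split by name. Both CREBBP genes fell, and neither EP300 gene passed. CREBBP (ENSDARG00000112452) stood at 326.8, 373.5, 376.1 and 306.8 CPM in mutants versus 580.9, 598.4, 571.8 and 447.7 CPM in siblings (-0.67 ± 0.139, adjusted p = 0.00304). Its copy ENSDARG00000104609 stood at 178.5, 167.5, 160.4 and 159.1 CPM in mutants versus 259.2, 286, 226.6 and 259.7 CPM in siblings (-0.63 ± 0.132, adjusted p = 0.00324). The 2 identifiers gave nearly the same fold, 0.629 and 0.645 of the sibling level, without overlap. EP300 (ENSDARG00000061108) averaged 457.6 ± 28.1 CPM in mutants versus 459.7 ± 33.6 CPM in siblings, with a log2 fold change of -0.0066 ± 0.123 that turned sign with the scaling, and ENSDARG00000100666 averaged 249 ± 34.7 CPM in mutants versus 260.3 ± 12.1 CPM in siblings (-0.06 ± 0.139). The difference between the CREBBP and EP300 changes was not itself tested.

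Of 12 hdac genes 10 were tested, and 2 fell. That is close to the share over all genes tested, of which 21.3% passed (11.4% lower and 9.92% higher). Of those with a mean of 50 CPM and over 41.2% passed (24.0% lower and 17.2% higher). HDAC4 (ENSDARG00000098349) stood at 57.3, 44.5, 47.8 and 46.4 CPM in mutants versus 115.7, 104.3, 111.9 and 104.8 CPM in siblings (-1.16 ± 0.155, adjusted p = 0.000117). HDAC5 (ENSDARG00000075139) stood at 34.3, 32.9, 45.5 and 34.4 CPM in mutants versus 65, 82.1, 89.3 and 79 CPM in siblings (-1.1 ± 0.181, adjusted p = 0.000571). Both encode class IIa deacetylases, which shuttle between nucleus and cytoplasm and restrain Mef2 factors. The mutant level of HDAC4 was 0.449 and that of HDAC5 0.466 of the sibling level.

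The other 3 class IIa genes did not pass. HDAC7 (ENSDARG00000105179) had 41 to 52.5 CPM in mutants versus 53.1 to 62.9 CPM in siblings, without overlap (-0.31 ± 0.172, adjusted p = 0.238), and hdac9b (ENSDARG00000056642) had 40.1 to 98.3 CPM in mutants versus 66.5 to 101.3 CPM in siblings. Of class I, none of the 3 tested genes passed: HDAC1 (ENSDARG00000015427), the catalytic subunit of several corepressor complexes and the most counted hdac gene, had 247 to 353.4 CPM in mutants versus 314.8 to 402.8 CPM in siblings (-0.2 ± 0.146, adjusted p = 0.397). HDAC11 had 10 counts in 1 mutant library and 0 in the other 3, against 2 to 22 counts in siblings, and hdac12 had 9 to 39 counts in mutants and 0 to 16 in siblings, both under the filter. SETD9, at 0 to 19 counts in mutants and 0 to 25 counts in siblings, was the third gene left untested.

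Among the chd remodellers 3 genes fell and 1 rose, 36.4% of the 11 tested. The share passing was 21.3% over all genes tested and 41.2% over those with a mean of 50 CPM and over. CHD2 (ENSDARG00000060687) stood at 196.6, 167, 183 and 228.2 CPM in mutants, against 300.3, 282.5, 323.6 and 360.6 CPM in siblings (-0.71 ± 0.144, adjusted p = 0.00259). chd4b (ENSDARG00000025789), which encodes an ATPase of the nucleosome remodelling and deacetylase complex, stood at 309.3, 337.6, 328.1 and 464.8 CPM in mutants, against 593.3, 631.8, 579.8 and 557.6 CPM in siblings (-0.71 ± 0.146, adjusted p = 0.00281). Mutant replicate 4 was the highest mutant for both genes and still lay below the siblings. A further gene of this ATPase, CHD4 (ENSDARG00000063535), averaged 373.1 ± 14.1 CPM in mutants versus 400.5 ± 95.8 CPM in siblings and did not pass (-0.1 ± 0.162).

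chd6 (ENSDARG00000017244) rose to 123.1, 156.2, 122.5 and 111.1 CPM in mutants, against 96.9, 71.5, 77.5 and 69.5 CPM in siblings (0.7 ± 0.167, adjusted p = 0.00754). CHD1L (ENSDARG00000015471), a remodeller recruited to damaged DNA by poly(ADP-ribose), had 18.2 to 19 CPM in mutants versus 25.7 to 38.9 CPM in siblings (-0.83 ± 0.221, adjusted p = 0.0142), a call lost without sibling replicate 1 (-0.94 to -0.76 over single libraries). CHD7 (ENSDARG00000075211), the gene of CHARGE syndrome in humans and the most counted chd gene, had 890 to 1216 CPM in mutants versus 1172 to 1435 CPM in siblings (-0.34 ± 0.13, adjusted p = 0.0736). It passed without mutant replicate 4, with -0.43, without that library and sibling replicate 2 together, with -0.40 (adjusted p = 0.0483), with limma-voom, with -0.35, and in the fit with replicate number as a block.

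The smarc genes encode subunits of the SWI/SNF (BAF) complex and the ATPases of ISWI and related remodellers. Of 18 tested, 5 rose and 3 fell, mostly by less than 2-fold. That is 44.4%, where 21.3% of all genes tested passed and 41.2% of those with a mean of 50 CPM and over. The BAF subunit genes that passed went in both directions. SMARCA4 (ENSDARG00000077226), the BAF ATPase Brg1, stood at 784.4, 753.1, 632.2 and 643.6 CPM in mutants versus 985.1, 1143, 832.2 and 932.3 CPM in siblings (-0.47 ± 0.136, adjusted p = 0.0231). A second identifier of the symbol (ENSDARG00000104339) had 5 to 55 counts in mutants and 47 to 140 in siblings and did not pass.

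The BAF subunit gene SMARCE1 (ENSDARG00000016871) averaged 227 ± 13.6 CPM in mutants versus 312.2 ± 44.7 CPM in siblings (-0.46 ± 0.139, adjusted p = 0.0285). SMARCD2 (ENSDARG00000088877), needed for neutrophil granules in humans and zebrafish, averaged 16.9 ± 2.37 CPM in mutants versus 27.4 ± 2.26 CPM in siblings (-0.7 ± 0.224, adjusted p = 0.0371). The scaffold subunit gene SMARCC1 (ENSDARG00000017397) was higher, at 627.2, 614.7, 562.5 and 621.1 CPM in mutants versus 494, 452.3, 453.7 and 402.5 CPM in siblings (0.43 ± 0.123, adjusted p = 0.0214). SMARCB1 (ENSDARG00000033647), a tumour suppressor subunit in humans, averaged 58.2 ± 7.46 CPM in mutants versus 38.4 ± 3.25 CPM in siblings (0.6 ± 0.176, adjusted p = 0.0241). A second SMARCB1 gene (ENSDARG00000011594) averaged 33.4 ± 8.01 CPM in mutants versus 27.4 ± 10.9 CPM in siblings and did not pass (0.29 ± 0.306, adjusted p = 0.583).

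Outside BAF, smarca5 (ENSDARG00000052348), the ISWI ATPase gene, stood at 428.9, 380.7, 318.8 and 376.8 CPM in mutants versus 309.9, 286.8, 214 and 203.3 CPM in siblings (0.57 ± 0.163, adjusted p = 0.0213). The lowest mutant was just above the highest sibling. Both genes with the symbol SMARCAD1, a remodeller that acts at DNA ends and replicated chromatin, were higher. ENSDARG00000014041 averaged 107.3 ± 22.5 CPM in mutants versus 68.7 ± 15 CPM in siblings (0.65 ± 0.202, adjusted p = 0.0339), with 1 mutant library inside the sibling range, and ENSDARG00000073721 averaged 12.8 ± 2.62 CPM in mutants versus 5.5 ± 2.17 CPM in siblings (1.22 ± 0.371, adjusted p = 0.0294). Every one of the 8 smarc calls depended on single libraries, and each kept its sign. Those of smarca5 (0.48 to 0.68) and SMARCC1 (0.38 to 0.47) ended without mutant replicate 1 or 2 or sibling replicate 4, and that of smarca5 also without sibling replicate 3. SMARCA4 (-0.54 to -0.4) ended without mutant replicate 3 or 4 or sibling replicate 1, and SMARCE1 (-0.52 to -0.39) without these, mutant replicate 2 or sibling replicate 2. SMARCB1 ENSDARG00000033647 (0.54 to 0.67) ended without mutant replicate 1 or 2 or sibling replicate 1, 3 or 4. SMARCAD1 ended without mutant replicate 1 or 2 or sibling replicate 3 or 4 for both genes, and without mutant replicate 4 for ENSDARG00000014041 (0.55 to 0.78) or sibling replicate 2 for ENSDARG00000073721 (1.06 to 1.51). SMARCD2 (-0.8 to -0.66) held, among single libraries left out, only without mutant replicate 4. Its call was also lost with upper-quartile scaling, with no filter and with the replicate block, and that of SMARCE1 with upper-quartile scaling. Without mutant replicate 4 and sibling replicate 2 together, the calls of SMARCC1, SMARCA4, SMARCE1 and SMARCAD1 ENSDARG00000014041 were lost.

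Zebrafish keep many genes as duplicates, and the 2 copies can respond differently. Within each library the log2 ratio of the 2 copies was formed for 1771 pairs of tested genes that share a symbol or differ in a last letter a or b, and compared between the genotypes with limma. The ratio depends on gene length, so its difference between mutants and siblings is what is read, and 19.0% of all pairs passed. Of 15 pairs of chromatin genes 4 passed. Relatives whose symbols differ in another way, such as CHD4 with chd4b or EHMT1 with ehmt1a, formed no pair. The 15 are therefore not all the duplicates among these genes. A pair by last letter can also hold older relatives, such as KDM6A with KDM6B and setd1a with SETD1B, neither of which passed.

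The kmt2b copies differed most clearly. The log2 ratio of kmt2ba to kmt2bb was 0.35, 0.21, 0.19 and 0.41 in mutants and -0.97, -1.07, -1.33 and -0.71 in siblings, a difference of 1.31 ± 0.147 (adjusted p = 1.14e-05). No library of either group came near the other, and the difference was 1.21 to 1.42 with any 1 library left out. The ratio of KDM2B ENSDARG00000036593 to ENSDARG00000046010 was higher in mutants by 0.8 ± 0.257 (adjusted p = 0.0355), that of kdm4aa to kdm4ab lower by a difference of -0.97 ± 0.313 (adjusted p = 0.0363) and that of KDM5B ENSDARG00000003098 to ENSDARG00000057093 by -0.52 ± 0.165 (adjusted p = 0.0355). In these 3 pairs kdm4aa, KDM5B ENSDARG00000003098 and KDM2B ENSDARG00000046010 were the copies that fell, while the others did not pass. All 3 calls were lost without mutant replicate 2 or 3, sibling replicate 2 or 4, or the pair of mutant replicate 4 and sibling replicate 2. Those of KDM2B (0.66 to 0.93) and KDM5B (-0.57 to -0.47) were lost without sibling replicate 1 as well, and that of KDM5B without mutant replicate 1, while kdm4aa over kdm4ab ran from -1.14 to -0.65. The pairs of CREBBP (0.04 ± 0.156) and EP300 (0.07 ± 0.131) did not pass.

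**Figure D4:**
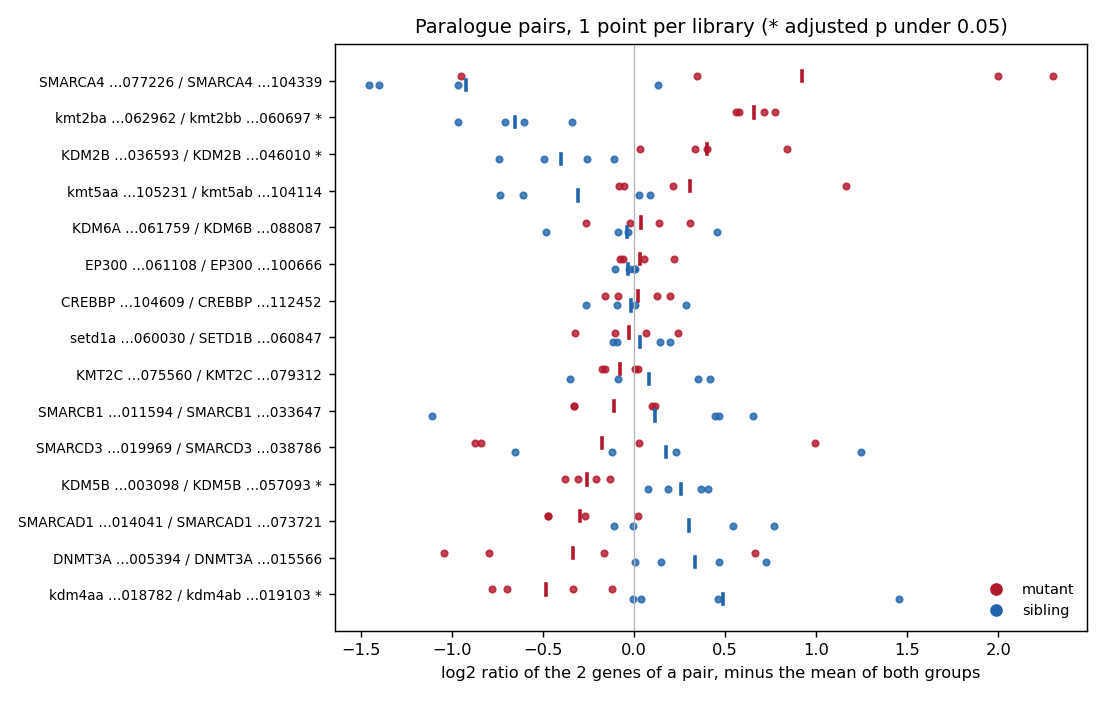
Log2 ratio of the CPM of the 2 genes of each pair, minus the mean of both groups (horizontal axis), for 15 pairs of chromatin genes (rows, with the last digits of the identifiers), 1 point per library and a bar at each group mean. Mutants and siblings separate fully for kmt2ba over kmt2bb, by 1.31, and lie together for CREBBP, by 0.04.

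Other chromatin genes, from 12 lists of partners and relatives that the symbols above leave out, were compared in the same fit. Of 230 such genes 219 were tested, and 27 were higher and 37 lower (29.2%), beside 21.3% of all genes (9.92% higher and 11.4% lower). The genes tested include hrc, which matched a list entry by name only, need not act on chromatin and did not pass. This comparison was not matched for depth. Partners of the deacetylases had 2 genes higher and 7 lower of 26. RCOR1, a partner of Lsd1, averaged 85.9 ± 8.1 CPM in mutants versus 36.5 ± 2.5 CPM in siblings (1.23 ± 0.162), and SAP30BP, whose product binds a Sin3 subunit, 102.8 ± 21.5 CPM in mutants versus 11.6 ± 1.76 CPM in siblings (3.15 ± 0.213). The related genes RCOR2 (-0.92 ± 0.243, adjusted p = 0.0135) and RCOR3 (-0.82 ± 0.257, adjusted p = 0.034) were lower in mutants, each with overlap between the groups.

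The list of INO80, SRCAP and ISWI genes, which also holds the further remodellers HELLS, ATRX and RAD54L2, had 5 higher and 5 lower of 26. That is 38.5%, where 21.3% of all genes tested passed and 41.2% of those with a mean of 50 CPM and over. The ATPase gene RUVBL1 stood at 434 ± 79.2 CPM in mutants versus 56.6 ± 13.3 CPM in siblings (2.94 ± 0.194). BAZ2B, of ISWI complexes, stood at 274.7 ± 33.6 CPM in mutants versus 802 ± 48 CPM in siblings (-1.55 ± 0.133), and HELLS, a remodeller needed for DNA methylation, at 73.8 ± 15.1 CPM in mutants versus 21.9 ± 7.07 CPM in siblings (1.76 ± 0.242). Of the 8 genes in the list of acetyl-lysine readers, which holds BET genes and brd1, 1 was higher and 5 were lower. brdt averaged 67.7 ± 10.8 CPM in mutants versus 196.6 ± 61.7 CPM in siblings (-1.54 ± 0.214) and BRD2 (ENSDARG00000022280) 162.8 ± 11.4 CPM in mutants versus 383.7 ± 138 CPM in siblings (-1.24 ± 0.216), and brd2b (adjusted p = 0.00534) was lower too. BRD1 is no BET gene but encodes a subunit of acetyltransferase complexes, and its 2 identifiers went opposite ways, ENSDARG00000013596 higher (0.93 ± 0.177) and ENSDARG00000051798 lower (-0.42 ± 0.131, adjusted p = 0.0342).

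Partner subunits of the Kmt2 and Setd1 complexes, some of them found in only some of these complexes, had 2 higher and 1 lower of 13. The share passing was 23.1% for these and for the Polycomb partners and 21.1% for the BAF partners. All 3 lay near the 21.3% of all genes tested. WDR5 (1 ± 0.164) and WDR82 (1.18 ± 0.214) were higher and hcfc1b (-0.52 ± 0.137) lower, the last not passing without mutant replicate 4 and sibling replicate 2. Polycomb partners had 3 higher and 3 lower of 26, with cbx7a at 242.6 ± 81.6 CPM in mutants versus 712.3 ± 184 CPM in siblings (-1.55 ± 0.227), RBBP4 (0.89 ± 0.205) and BMI1 (ENSDARG00000006010, 1.01 ± 0.278). A second BMI1 gene (ENSDARG00000013076) did not pass (0.76 ± 0.348, adjusted p = 0.142). BAF partners had 1 higher and 3 lower of 19, among them the DNA-binding subunit gene ARID1A (ENSDARG00000101891, -0.56 ± 0.141, and ENSDARG00000101710, -0.4 ± 0.136), BICRAL (-0.6 ± 0.203) and BRD9 (0.73 ± 0.206). ENSDARG00000101710 passed narrowly (adjusted p = 0.0489), and its call was not tried with libraries left out or with other settings. The calls of BMI1 (0.93 to 1.23), BRD9 (0.58 to 0.87) and BICRAL (-0.74 to -0.5) ended without mutant replicate 1 or sibling replicate 1. They also ended without sibling replicate 4 for BMI1 and sibling replicate 3 for BRD9, and BICRAL held only without mutant replicate 3 or sibling replicate 3 and not with RLE, total-count or upper-quartile scaling.

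Other acetyltransferase genes had 3 higher and 3 lower of 26, with KAT6B (-1.23 ± 0.187), JADE3 (0.91 ± 0.223) and KAT14 (1.08 ± 0.285). Other histone methyltransferase genes had 3 higher and 2 lower of 25, with ASH1L (-1.13 ± 0.142), the arginine methyltransferase gene PRMT7 (1.02 ± 0.209) and SMYD5 (1.38 ± 0.285). Histone chaperone genes had 5 higher and 6 lower of 26, with NAP1L4 (ENSDARG00000068868, -1.06 ± 0.199), SSRP1 (ENSDARG00000016994, -2.41 ± 0.478, at 2.8 ± 1.59 CPM in mutants versus 14.9 ± 5.15 CPM in siblings), and ubn2a (-0.64 ± 0.157). A second SSRP1 gene (ENSDARG00000037397) was higher, at 258.5 ± 60.7 CPM in mutants versus 157 ± 41.3 CPM in siblings (0.72 ± 0.212, adjusted p = 0.0246). Partners in DNA methylation had 2 higher and 1 lower of 9: UHRF1, the thymine glycosylase gene TDG (ENSDARG00000013004, 0.55 ± 0.186), and ZBTB33 (-1.33 ± 0.395), which binds methylated DNA. Of 7 sirtuin genes SIRT1 was lower (-0.54 ± 0.176), and none of the 8 genes in the list of other demethylases passed. That list took hrc through the entry hr plus a copy letter, and hrc need not encode a demethylase. TDG (0.47 to 0.72) held only without sibling replicate 1, and SIRT1 (-0.68 to -0.42) only without mutant replicate 3 or sibling replicate 2 and not with total-count or upper-quartile scaling. ZBTB33 (-1.76 to -1.08) ended without mutant replicate 1 or 3 or sibling replicate 2 or 4, and KAT14, at 0.79 to 1.21, without mutant replicate 4 and sibling replicate 2 together.

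**Figure D5:**
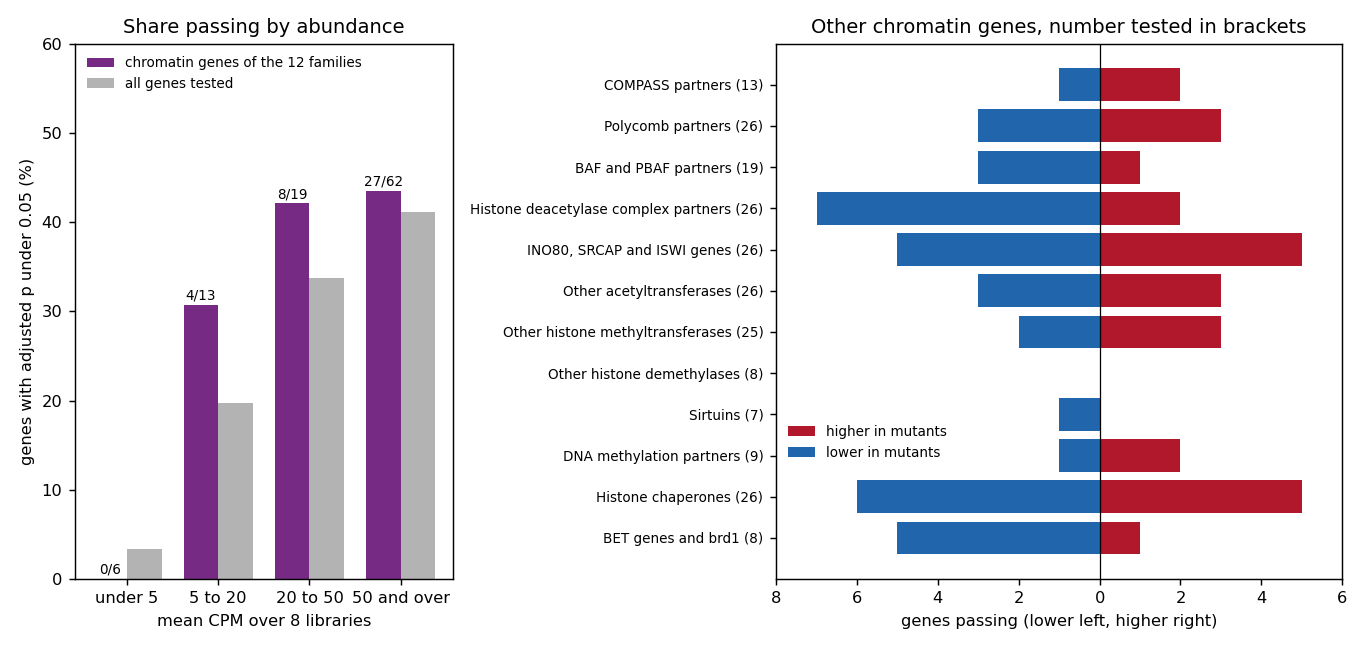
Left, share of genes with an adjusted p under 0.05 (vertical axis) by mean CPM, for the tested chromatin genes (number passing over number tested above the bar) and for all genes tested. Right, number of other chromatin genes lower (left) and higher (right) in mutants in each of 12 lists, with the number tested in brackets. The deacetylase partners had 7 lower (26.9%) and 2 higher, and the list of BET genes and brd1 5 lower and 1 higher. Of all genes tested 11.4% were lower and 9.92% higher, and of those with a mean of 50 CPM and over 24.0% lower and 17.2% higher. The list of INO80, SRCAP and ISWI genes also holds HELLS, ATRX and RAD54L2.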

How the data were processed

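Total RNA of kdrl-positive cells was sequenced after ribosomal depletion, in libraries of a stranded kit, per the labels' protocols. Per the submitters' processing notes the build was GRCz10, and Cufflinks 2.2.1, Picard, STAR 2.4.2a and Trim Galore were used. What did the counting, with which annotation and strand setting, is not given in the sources used here, so reads of overlapping or antisense genes may be mixed. The deposited values are counts by Ensembl gene, whole numbers with unequal totals and no sign of normalization, and 4867 genes had no count. The counts do not tell unspliced RNA from spliced RNA.

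Symbols came from a table of Ensembl names. Those in capitals follow the human gene and can be shared: 10 symbols cover 20 of the 103 genes, which are therefore given with their identifiers. Positions and sequences are not given. Mutants and siblings (4 libraries each, grouped by title) were compared with edgeR 4.0.16 in R 4.3.3: filterByExpr (smallest count 10, smallest total 15), TMM, robust glmQLFit, then glmQLFTest on genotype alone, with p adjusted after Benjamini and Hochberg over 18289 genes. SE is the log2 fold change divided by the square root of F. Pair ratios used log2 CPM with a prior count of 2 and limma 3.58.1, adjusted over 1771 pairs. Scripts were tested on simulated data. No 2 libraries of a group agreed within sampling noise (chi-square per degree of freedom 14 to 47.2). The first principal component held 36.7% of the variance and parted the genotypes, and the second (22.6%) set mutant replicate 4 and sibling replicate 2 apart.

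The genes, lists and tests were chosen with earlier results of these data known. The rule for named genes took, per family, up to 6 passing genes with the smallest p and the most counted gene, the copies of passing pairs, up to 3 passing genes per list, and sf3b1 and kdrl. Some genes that the rule takes are not reported here. Further genes were named after their values were seen, to complete families: kdm6bb, SMARCD2, SMARCAD1 (ENSDARG00000014041), SMARCA4 (ENSDARG00000104339), SMARCB1 (ENSDARG00000011594), the DNMT3A and DNMT3B genes, TET2, KMT2C (ENSDARG00000075560), KMT2E, setd1a, SETD1B, EHMT2, kdm2aa, EP300 (ENSDARG00000100666), HDAC7, hdac9b, CHD4, HDAC11, hdac12, SETD9, RCOR2, RCOR3, BMI1 (ENSDARG00000013076), brd2b, BRD1 (ENSDARG00000051798), ARID1A (ENSDARG00000101710), SSRP1 (ENSDARG00000037397), flt1, sox18, marco, birc5b, MYF5 and MFAP4. Of these further genes, only kdm6bb, SMARCD2 and SMARCAD1 (ENSDARG00000014041) were followed 1 by 1 through the alternatives. Alternatives were RLE, total-count and upper-quartile scaling, no filter, a stricter filter (50 counts in 4 libraries), DESeq2 1.42.0, limma-voom, a replicate block, both outlying libraries left out and each library left out in turn; for pairs, prior counts of 0.5 and 5 and, added after seeing the data, shared symbols only.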

Additional observations from a re-analysis of the deposited data

Results flagged for a closer look

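In a group of 4 libraries, a value was marked when its gap to the nearest other library took more of the group's range than Dixon's critical value allows, and chance marks about 1 in 20 groups. Over 80 named genes, 10 of 160 groups were marked. Among the chromatin genes of the families, EZH2 was low in mutant replicate 1, at 60.3 CPM beside 76.3 to 79 CPM in the other mutants. HDAC5 was high in mutant replicate 3, at 45.5 CPM beside 32.9 to 34.4 CPM. setd1bb stood at 2.41 CPM in sibling replicate 4, beside 0 to 0.245 CPM in the other siblings. tet3 was high in sibling replicate 3, at 389.5 CPM beside 272.7 to 286.8 CPM. kdm4ab was low in sibling replicate 2, at 32.9 CPM beside 46.1 to 48.1 CPM.

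Among the other chromatin genes, HELLS was marked in both groups, low in mutant replicate 3 (51.4 CPM, others 78 to 83.1 CPM) and high in sibling replicate 1 (32.5 CPM, others 17.4 to 19.2 CPM). SIRT1 was high in mutant replicate 3 (136.3 CPM, others 104.2 to 109.1 CPM). BMI1 (ENSDARG00000006010) was high in sibling replicate 3 (15.8 CPM, others 9.32 to 9.73 CPM), and TDG was high in sibling replicate 1 (68.9 CPM, others 43.6 to 47.1 CPM).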

How the results depend on the processing

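Of the 39 chromatin genes that passed, 23 passed in all 17 alternatives, 16 were lost in at least 1 of them (all 16 on leaving out a single library), and no sign turned. The 16 higher and 23 lower genes became 9 to 15 higher and 17 to 22 lower on leaving out single libraries, with 9 higher without mutant replicate 1, 9 without mutant replicate 2 and 10 without sibling replicate 4. Among the other settings, 14 to 16 were higher and 20 to 26 lower. With the replicate block 15 were higher and 23 lower, and 353 pairs passed, beside 336 without it. Across all genes the deviations of same-numbered libraries had correlations of -0.0393, -0.0349, 0.0162 and 0.0534, and the numbers were not taken as pairs. Yet kdrl was higher in the mutant of each number and rose with the number in both groups. It stood at 690, 992, 1240 and 1625 CPM in mutants and at 628, 630, 884 and 1064 CPM in siblings. Whether same-numbered libraries share a sort was not tested. With the block KMT2D and SMARCD2 were lost, as were BICRAL and TDG, and CHD7 (-0.35, adjusted p = 0.0436) and kdrl passed. With pairs that share a symbol only, a smaller set by construction, 198 passed.

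Genes with a log2 fold change near 0 turned sign. EZH2 was 0.0116 with RLE, 0.0121 with total counts, 0.0675 with upper-quartile scaling, 0.00655 with no filter, 0.0269 with the stricter filter, 0.012 with DESeq2, 0.00582 with limma-voom and 0.00386 with the replicate block. setd2 was 0.0106, 0.00505, 0.0669, 0.00686, 0.0253, 0.0108, 0.00466 and 0.00541 in that order, and 0.00936 without both outlying libraries. EP300 (ENSDARG00000061108) was 0.00509 with RLE, 0.0602 with upper-quartile scaling, 0.00014 with no filter, 0.0191 with the stricter filter and 0.00544 with DESeq2. With single libraries left out, the ranges were -0.0482 to 0.107 for EZH2, -0.0641 to 0.058 for setd2, -0.0576 to 0.0338 for EP300 and -0.200 to 0.0578 for KDM5B (ENSDARG00000057093).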
